A study of Mus musculus with 72 samples.

Results

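The genes that write, copy and remove DNA methylation were followed through X chromosome inactivation and neural differentiation of mouse embryonic stem cells. They were chosen by name for their function, with earlier results of these data known. They comprise 8 of the 22556 genes counted: the maintenance pair Dnmt1 and Uhrf1, the de novo group Dnmt3a, Dnmt3b and Dnmt3l, and the dioxygenases Tet1, Tet2 and Tet3. All 8 passed the filter on low counts in every comparison described here.

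Cytosine in CG dinucleotides is methylated de novo by DNMT3A and DNMT3B, and the catalytically inactive DNMT3L stimulates both. After replication UHRF1 recognises the hemimethylated CG and recruits DNMT1, which copies the mark to the new strand. TET1, TET2 and TET3 oxidise methylcytosine and so start its removal. Embryonic stem cells (ES cells) are known for high TET1 and TET2, exit from the naive state is accompanied by a wave of de novo methylation, and CG island promoters on the inactive X become methylated during X inactivation, a step in which the chromosomal protein SmcHD1 takes part. Methylation itself was not measured here, and the values below are RNA levels of the enzymes.

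The assay was chromatin-associated RNA sequencing (ChrRNA-seq), which captures mostly nascent RNA, and levels are given as RPM, the fragments of a gene scaled to the total of the library. Female ES cells from a 129S (Mus musculus domesticus, Dom) by Mus musculus castaneus (Cast) cross carried a doxycycline-inducible promoter in front of Xist on 1 X chromosome, the future inactive X (Xi): the Dom X in iXist-ChrX_Dom and the Cast X in iXist-ChrX_Cast. Wild-type (WT) cells of each line were set against CRISPR-Cas9 knockouts (KO) of SmcHD1, clone A3 in iXist-ChrX_Dom and clones D5 and G6 in iXist-ChrX_Cast. Each genotype is thus represented by 1 or 2 clones per line, and clone and genotype cannot be told apart in iXist-ChrX_Dom.

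All induced samples of both genotypes received doxycycline and neural differentiation medium from the same start, so days of Xist induction and days of differentiation are the same days. Uninduced ES samples, from lines kept in serum and LIF on fibroblast feeders and plated without feeders before harvest, were of KO clones only (2 replicates of A3, 2 of D5 and 1 of G6). Days 2 and 3 are called early here (21 replicates), days 5 and 7 mid (22 replicates), and days 15, 21, 35 and, in iXist-ChrX_Dom, 52 late (17 replicates, 1 per clone and day, so that no late day has a replicate error of its own). In all there were 65 replicates from 72 libraries, 12 WT and 14 KO in iXist-ChrX_Dom and 14 WT and 25 KO in iXist-ChrX_Cast.

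The 26 libraries of iXist-ChrX_Dom held 9344054 to 31216487 counted fragments each, and the 46 of iXist-ChrX_Cast held 13211298 to 31107643. Smchd1 RNA, read over the whole gene body, does not check the KO: early levels were 516 to 585 RPM in iXist-ChrX_Dom WT and 467 to 579 RPM in A3, and 522 to 709 RPM in iXist-ChrX_Cast WT against 416 to 616 RPM in its KO clones. The summed neural precursor markers rose from 26.8 to 62.0 RPM in ES cells to 129 to 914 RPM in late cells, and Nes and Vim carried most of that sum. Sox1 was listed at 0 in every library, Olig2 in 12 of 17 late libraries, and the late median of Pax6 was 0.868 RPM. Collagens and other genes listed as fibroblast markers summed to 5.20 to 31.4 RPM in ES cells and 243 to 16141 RPM in late cells. Col3a1 led that sum (late median 2294 RPM), whereas Thy1 of the same list was at medians of 1.44 RPM in ES cells and 0.320 RPM late. Feeders had been depleted by repeated pre-plating before differentiation, and which cells gave these transcripts was not tested. Late A3 day 52 and G6 day 35 had the lowest summed cell cycle genes (339 and 536 RPM), and late iXist-ChrX_Dom WT day 21 kept the highest summed naive pluripotency genes (166 RPM, against 4.28 to 50.8 RPM in the other late libraries). In these bulk samples fewer cells of a type and less RNA per cell cannot be told apart.

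In the mm10 coordinates of the count files the maintenance genes lie at chr9:20907205-20959888 on the minus strand (Dnmt1) and chr17:56303336-56323486 on the plus strand (Uhrf1). The de novo genes lie on the plus strand at chr12:3806979-3914443 (Dnmt3a), chr2:153649448-153687730 (Dnmt3b) and chr10:78042286-78063622 (Dnmt3l). The TET genes lie on the minus strand at chr10:62804569-62880014 (Tet1), chr3:133463676-133544390 (Tet2) and chr6:83362373-83441678 (Tet3). None is X-linked, and fragments were counted over the whole gene body, introns included.

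Of the courses described below, Dnmt3b peaked early, Dnmt3l was lost and Tet2 dipped and returned. These 3 genes are shown by the 250 bases before their first listed start, because the windows differ widely in content of CG, the target of the enzymes themselves. The sequences are from RefSeq (GRCm38.p6), written 5′ to 3′ on the gene's strand, with each CG in capitals. The first window is chr2:153649199-153649448 (plus strand), the next is chr10:78042037-78042286 (plus strand) and the last is chr3:133544391-133544640 (minus strand).
Dnmt3b: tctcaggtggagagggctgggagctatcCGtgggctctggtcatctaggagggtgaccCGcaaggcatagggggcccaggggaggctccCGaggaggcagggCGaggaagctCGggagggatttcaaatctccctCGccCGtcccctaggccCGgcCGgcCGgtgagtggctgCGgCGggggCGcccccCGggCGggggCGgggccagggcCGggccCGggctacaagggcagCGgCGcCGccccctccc
Dnmt3l: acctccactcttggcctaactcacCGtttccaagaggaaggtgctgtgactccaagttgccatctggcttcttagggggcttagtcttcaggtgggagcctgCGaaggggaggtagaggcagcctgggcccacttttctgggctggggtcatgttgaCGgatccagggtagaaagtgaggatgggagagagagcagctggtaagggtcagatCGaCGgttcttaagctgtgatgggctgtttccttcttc
Tet2: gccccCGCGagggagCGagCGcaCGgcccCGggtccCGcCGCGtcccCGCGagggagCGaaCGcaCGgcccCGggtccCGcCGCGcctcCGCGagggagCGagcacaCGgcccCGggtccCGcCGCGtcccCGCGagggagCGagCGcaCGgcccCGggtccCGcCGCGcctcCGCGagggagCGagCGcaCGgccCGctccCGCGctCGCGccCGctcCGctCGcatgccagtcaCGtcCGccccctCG

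The Tet2 window held 51 CGs, a number reached by 0.067% of the 32851 listed mouse promoters of this length. The Dnmt3b window held 21 CGs, which 16.3% of promoters reached or exceeded, and the Dnmt3l window 5, which 55.6% reached or exceeded. The median promoter held 6. Dnmt3l has further listed starts, with 4 and 3 CGs in their windows. Of the other members, the windows of Tet3 and Tet1 held 17 and 15 CGs, and Dnmt1, Uhrf1 and Dnmt3a have several listed starts with 2 to 26, 10 to 30 and 15 to 40 CGs. These counts describe the sequence and say nothing of its methylation in these cells.

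**Figure D1:**
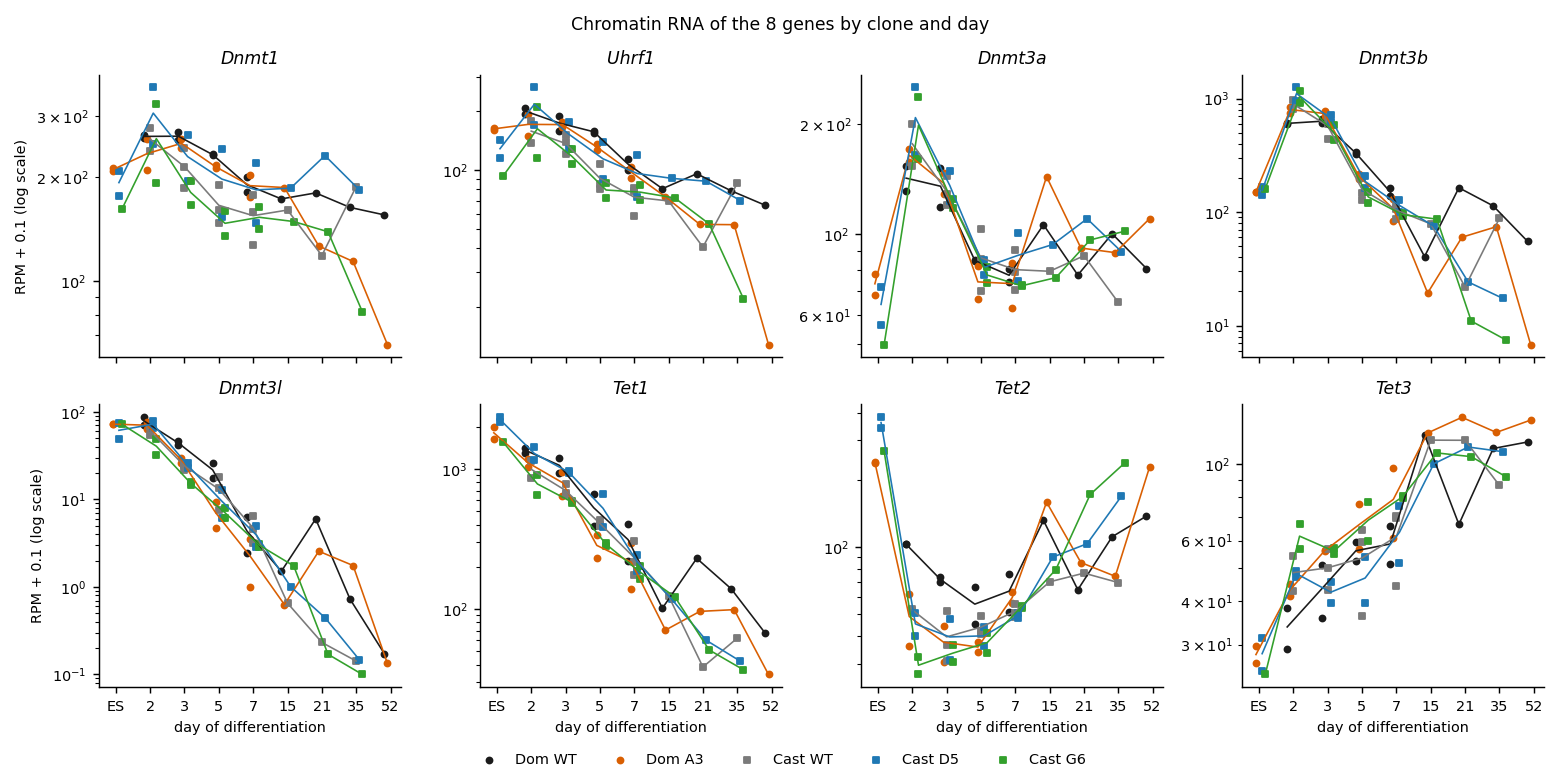
Levels of the 8 genes (RPM plus 0.1, log axis) by day of Xist induction and differentiation, from uninduced ES cells to day 52. Points are replicates and lines join clone means. Dnmt3b peaks at days 2 and 3 at 429 to 1254 RPM, Dnmt3l falls to between 0 and 5.88 RPM in the late libraries, Tet1 goes from 1555 to 2336 RPM in ES cells to 33.9 to 229 RPM late, Tet2 is lowest between days 2 and 5 and higher later, and Tet3 is at 24.5 to 31.2 RPM in ES cells and 66.7 to 136 RPM late.

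Between neighbouring periods the number of the 8 genes called, against the share of all tested genes called in the same contrast, was 2 against 11.6% (early to mid) and 3 against 20% (mid to late) in iXist-ChrX_Dom WT, and 6 against 34.3% and 4 against 30% in iXist-ChrX_Cast WT. Called means an adjusted p below 0.05 over all genes of the line's fit (edgeR). The median log2 fold change of the 8 genes from early to mid was -0.63 and -0.72 in these WT groups, where that of all genes was -0.011 and -0.0041, and from mid to late it was -0.29 and -0.02, where that of all genes was 0.0039 and 0. In A3 it was 4 against 20.2% from ES to early, 5 against 23% from early to mid and 7 against 34% from mid to late. In D5 and G6 it was 5 against 28.9%, 8 against 45.3% and 6 against 53.7%. The 8 include a rise of Tet2 (0.43, edgeR adjusted p = 0.0455) that many settings lost. They were DESeq2, library totals, DESeq2 size factors, R1 and R2 runs apart, these clones fitted alone, and several fits without a single replicate. The KO groups of iXist-ChrX_Cast hold more replicates than WT, and the counts of calls are not comparable between groups for that reason. Same-numbered replicates of D5 and G6 also deviated together on each of days 2 to 7 (correlations of their differences 0.32 to 0.70), so they are not fully independent and the p-values of fits that pool them may be too small. Tet1 was called from early to mid and from mid to late in all 4 groups, Dnmt3a from early to mid in all 4, and Tet2 and Tet3 from mid to late in all 4.

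Dnmt1, the methyltransferase that follows the replication fork, was at 162 to 212 RPM in the 5 ES replicates (median 208), 166 to 363 RPM in the early replicates, 127 to 241 RPM in the mid replicates and 65.4 to 231 RPM in the late libraries. The day medians lay between 139 RPM (day 21) and 259 RPM (day 2) except at day 52, where the 2 libraries had 65.4 and 155 RPM, and days next to each other in the order of medians overlapped. Uhrf1, the reader of hemimethylated CG, went further down, from 93.3 to 165 RPM in ES cells and 108 to 265 RPM early to 58.4 to 159 RPM in the mid period and 12.7 to 95.8 RPM late. Its lowest values were those of A3 at day 52 (12.7 RPM) and G6 at day 35 (21.9 RPM), the libraries with the lowest cell cycle sums, and the part of cell cycle activity in these values was not tested.

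In iXist-ChrX_Cast WT both maintenance genes fell from early to mid, Dnmt1 by 0.41 on the log2 scale (SE 0.14, adjusted p = 0.0258, a call lost when any 1 of 5 WT replicates was left out, namely day 2 replicates 1 and 2, day 5 replicate 2 and day 7 replicates 1 and 2) and Uhrf1 by 0.71 (SE 0.19, adjusted p = 0.00464). The values in iXist-ChrX_Dom WT were -0.28 and -0.47 and did not pass the threshold (adjusted p = 0.254 and 0.251). From mid to late neither gene passed in WT of either line, and the only late calls were in A3, where Dnmt1 fell by 0.45 (SE 0.16, adjusted p = 0.0309) and Uhrf1 by 1.02 (SE 0.27, adjusted p = 0.00677). Without A3 day 52 the Dnmt1 change was -0.33 and no longer called, and the Uhrf1 change was -0.77 and still called. The Dnmt1 call was also lost without day 21 or day 35, so it rested on single libraries. Over the 40 means of a clone and day, Dnmt1 and Uhrf1 followed each other with a Pearson r of 0.96 on the log2 scale. These points share libraries and depth, and the value is a description.

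The de novo methyltransferases rose as cells left the ES state. Dnmt3b was at 142 to 167 RPM in the 5 ES replicates (A3 150 and 151, D5 142 and 167, G6 160 RPM). At day 2 it was at 597 to 1254 RPM with a median of 879, and at day 3 at 429 to 770 RPM with a median of 621. No early replicate lay near the ES range. By day 5 the level was back to 121 to 338 RPM and by day 7 to 83.2 to 162 RPM, around or under the ES level. In late cells it diverged between libraries: 40.4, 164, 113 and 55.1 RPM in iXist-ChrX_Dom WT at days 15, 21, 35 and 52, and 78.6, 21.8 and 87.8 RPM in iXist-ChrX_Cast WT at days 15, 21 and 35.

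The rise of Dnmt3b from ES to early had a log2 fold change of 2.41 in A3 (SE 0.66, adjusted p = 0.0140) and 2.24 in D5 and G6 (SE 0.57, adjusted p = 0.00347). Leaving out either A3 ES replicate ended the call in A3. The fall from early to mid was called in 3 of the 4 clone groups, by 2.18 in A3 (adjusted p = 0.00375), 2.3 in iXist-ChrX_Cast WT (SE 0.42, adjusted p = 0.000127) and 2.50 in D5 and G6 (adjusted p = 1.98e-06), whereas iXist-ChrX_Dom WT had -1.33 (SE 0.48, adjusted p = 0.0747). Other settings called the fall in iXist-ChrX_Dom WT too. They were DESeq2, that clone fitted alone, a replicate block, a coefficient for each clone and day, and the fit without A3 day 52. A difference between these falls was not tested. In iXist-ChrX_Dom WT the early levels were 597 to 657 RPM and the mid levels 138 to 338 RPM, so the periods did not overlap there either.

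Dnmt3a rose and fell on the same days with a smaller amplitude. It was at 49.8 to 77.9 RPM in ES cells, 131 to 252 RPM at day 2, 118 to 152 RPM at day 3 and 62.9 to 103 RPM at days 5 and 7. The early rise was called in A3 (log2 fold change 1.1, SE 0.20, adjusted p = 0.00125) and in D5 and G6 (1.42, SE 0.20, adjusted p = 2.92e-06), and the fall to the mid period was called in all 4 clone groups (-0.72 to -0.91). Unlike Dnmt3b, Dnmt3a did not go on falling. Its late levels were 65.0 to 144 RPM, and it rose from mid to late in A3 (0.87, SE 0.16, adjusted p = 0.000658) and in D5 and G6 (0.54, adjusted p = 0.00111), where scaling by library totals, as in the RPM values, gave 0.25 and no call, with 0.41 (adjusted p = 0.0684) and 0.10 (adjusted p = 0.706) in the WT groups.

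Dnmt3l, the cofactor without activity of its own, left with the ES state but more slowly than the de novo wave rose. ES levels were 49.1 to 73.9 RPM and day 2 levels 32.1 to 86.6 RPM, which overlap. The median was then 25.9 RPM at day 3, 9.21 at day 5, 3.04 at day 7 and 0.910 at day 15. Late counts were 0 to 156 fragments a library, and the highest late value, 5.88 RPM, was that of iXist-ChrX_Dom WT day 21, the library with the highest naive pluripotency sum. From early to mid Dnmt3l fell by 2.02 in iXist-ChrX_Cast WT (SE 0.57, adjusted p = 0.00638), 3.32 in A3 (adjusted p = 0.0114) and 2.51 in D5 and G6 (adjusted p = 0.000111), with -2.22 (adjusted p = 0.0919) in iXist-ChrX_Dom WT. From mid to late it fell by 4.96 in iXist-ChrX_Cast WT (SE 0.98, adjusted p = 0.000282) and by 3.38 in D5 and G6 (adjusted p = 5.28e-05). In iXist-ChrX_Dom WT the late value was -2.49 (adjusted p = 0.0512), and without its day 21 library it was -3.89 and called. Dnmt3b was at -1.15 with the same library (edgeR adjusted p = 0.0921) and at -1.53 and called without it, and Dnmt3a was at 0.50 and called without it. Other settings moved these calls as well. With all libraries kept, Dnmt3l was called by DESeq2, with library totals and with DESeq2 size factors. A coefficient for each clone and day called Dnmt3l, Dnmt3b and Dnmt3a. Dnmt3b was also called with iXist-ChrX_Dom WT fitted alone, and Dnmt3b and Dnmt3l were called without A3 day 52.

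The TET genes moved apart from each other. Tet1, the TET gene of highest level in ES cells, was at 1555 to 2336 RPM there (A3 1630 and 1992, D5 2164 and 2336, G6 1555 RPM). Its range was 655 to 1428 RPM at day 2, 573 to 1188 at day 3, 231 to 666 at day 5 and 138 to 404 at day 7. In late libraries it was at 33.9 to 229 RPM, the highest again being iXist-ChrX_Dom WT day 21. Each step between periods was downward in every clone group: from early to mid by 1.49 and 1.24 on the log2 scale in WT of iXist-ChrX_Dom and iXist-ChrX_Cast (adjusted p = 0.00899 and 0.00205), and from mid to late by 1.43 and 1.92 (adjusted p = 0.00790 and 0.000329). The first step, from ES to early, was called in D5 and G6 (-1.24, SE 0.33, adjusted p = 0.00487) but not in A3 (-0.87, adjusted p = 0.137).

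Tet2 lost its ES level before day 2 and regained part of it late. ES levels were 237.8 and 240.6 RPM in A3, 341 and 381 RPM in D5 and 268 RPM in G6. At day 2 they were 36 and 61.6 RPM in A3, 39.8 and 50.6 in D5 and 26.8 and 32.2 in G6. All 12 early KO replicates lay between 26.8 and 61.6 RPM, below every ES replicate. The early fall had a log2 fold change of -2.43 in A3 (SE 0.41, adjusted p = 0.000632) and -3.21 in D5 and G6 (SE 0.23, adjusted p = 1.89e-11), the widest ES to early change among the members of that line. From mid to late Tet2 rose in every clone group, by 1.15 in iXist-ChrX_Dom WT (SE 0.35, adjusted p = 0.0273), 1.86 in A3 (SE 0.36, adjusted p = 0.000940), 0.79 in iXist-ChrX_Cast WT (SE 0.24, adjusted p = 0.0141) and 1.94 in D5 and G6 (SE 0.19, adjusted p = 9.78e-10). The iXist-ChrX_Cast WT call was lost without its day 21 library, and the iXist-ChrX_Dom WT call without any of 5 libraries. The highest late values, 228 RPM in A3 at day 52 and 237 RPM in G6 at day 35, were in the libraries with the lowest cell cycle sums and with fibroblast sums of 10166 and 13914 RPM. Without these libraries the late rise was 1.32 in A3 and 1.70 in D5 and G6, both still called. The part of other cell types in these values was not tested.

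Tet3, the TET gene known from oocytes and neural cells, was higher in late than in ES cells. It went from 24.5 to 31.2 RPM in ES cells to 29.0 to 66.7 RPM early, 36.2 to 96.8 RPM mid and 66.7 to 136 RPM late. It rose from ES to early in A3 (0.87, SE 0.27, adjusted p = 0.0282, a call lost without either ES replicate or either day 3 replicate) and in D5 and G6 (0.86, SE 0.19, adjusted p = 0.00103). From early to mid it was called in A3 (0.72, adjusted p = 0.0192, lost without either day 2 replicate or day 7 replicate 2) and in D5 and G6 (0.43, adjusted p = 0.00598), while the WT values of 0.62 in iXist-ChrX_Dom (adjusted p = 0.0622) and 0.33 in iXist-ChrX_Cast (adjusted p = 0.0912) did not pass. The rise from mid to late was called in all 4 clone groups with near values, 1.1 in WT of each line (SE 0.21 and 0.17, adjusted p = 0.00176 and 1.35e-05), 1.11 in A3 (adjusted p = 0.000901) and 0.98 in D5 and G6 (adjusted p = 5.14e-07). The lowest late library was iXist-ChrX_Dom WT day 21 with 66.7 RPM.

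Between these opposite courses the composition of the TET transcripts changed. Per gene-body length (RPKM), Tet1 made up 84.9 to 88.7% of the summed TET level in ES cells and 87.2 to 93.9% early, then 47.7 to 87.7% in the mid period and 9.06 to 65.0% late. Tet2 made up 10.0 to 14%, 2.84 to 6.72%, 5.45 to 20.4% and 17 to 64.2% in the same periods, and Tet3 0.892 to 1.34%, 1.93 to 8.53%, 6.80 to 31.9% and 18 to 50.3%. The summed TET level fell from a median of 29.8 RPKM in ES cells to 13.7, 5.28 and 4.04 RPKM. Late cells thus held a smaller TET level that was shared by all 3 genes, with medians of 29.6% for Tet1, 32.3% for Tet2 and 34.3% for Tet3.

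**Figure D2:**
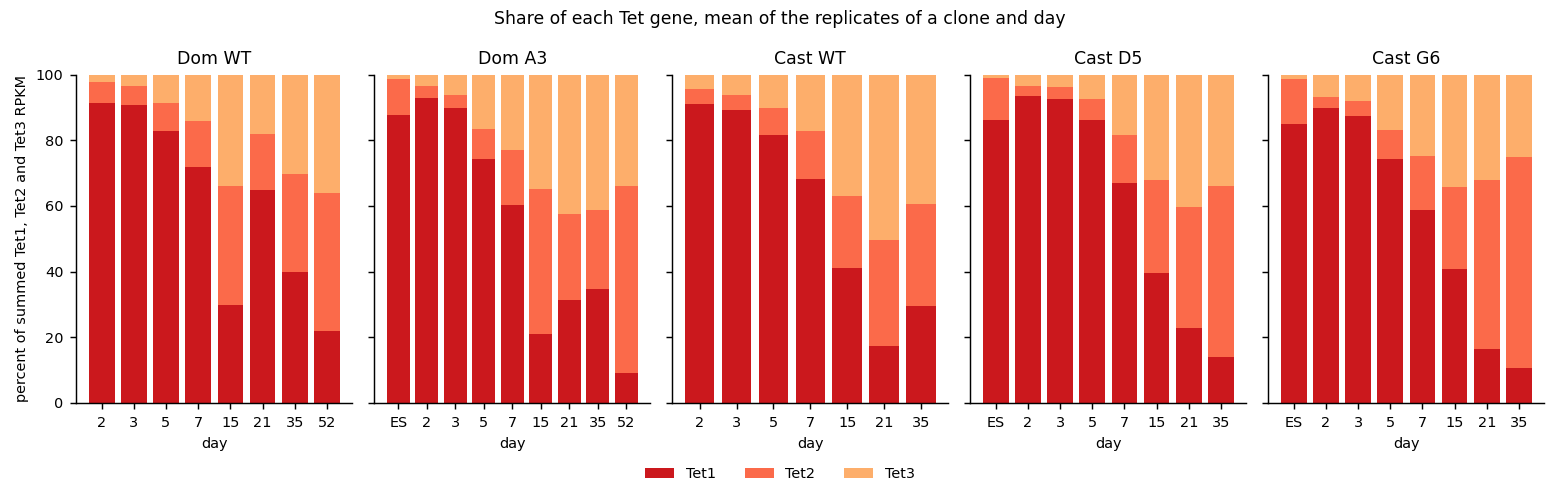
Share of Tet1, Tet2 and Tet3 in their summed level per gene-body length (percent of summed RPKM, stacked bars from 0) by day for each of the 5 clones. Tet1 makes up over 84% of every ES bar, and in the late bars the genes share the total, with Tet1 at 9.06 to 65.0%.

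The DNMT genes were recomposed in another way. Dnmt3b made up a median of 34.9% of the summed DNMT level per length in ES cells, 71.4% early, 45.6% in the mid period and 28% late. Dnmt1 took the opposite course with 33.2% in ES cells, 17.9% early and 55.1% late. Dnmt3l fell from 28.3% in ES cells to 6.72% early and 0.419% late. The summed level went from a median of 11.7 RPKM in ES cells to 26.1 RPKM early, 8.03 RPKM mid and 5.39 RPKM late, so the early sum lay above the ES sum in every replicate (16.2 to 45.7 against 10.6 to 12.1 RPKM).

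Ordered by level per length, ES cells had Tet1 first (median 26.4 RPKM), then Uhrf1 (7.05 RPKM), each without overlap with the next gene. Dnmt1 and Dnmt3b (3.95 RPKM each) overlapped, as did Dnmt3l (3.38 RPKM) and Tet2 (3.32 RPKM), whereas Dnmt3b lay above Dnmt3l in 5 of 5 replicates. Dnmt3a (0.636 RPKM) and Tet3 (0.333 RPKM) came last. Early cells had Dnmt3b first (18.5 RPKM), above Tet1 (12.4 RPKM) in 19 of 21 replicates. In late cells Uhrf1 (3.47 RPKM) and Dnmt1 (3.05 RPKM) came first, and Dnmt3b, Tet3, Tet2, Tet1 and Dnmt3a (1.44 to 0.852 RPKM) overlapped with their neighbours. Dnmt3l (0.0248 RPKM) was last without overlap.

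These courses were set against silencing of the Xi. Silencing was read as the allelic ratio Xi/(Xi+Xa), the median over the X-linked genes listed for each line (246 in iXist-ChrX_Dom and 399 in iXist-ChrX_Cast), where Xa is the active X. Over replicates the ratio was 0.414 to 0.514 in ES cells, 0.102 to 0.230 at day 2, 0.0610 to 0.149 at day 3, 0.0193 to 0.0571 at day 5 and 0.0118 to 0.0368 at day 7. Most of the fall therefore preceded day 3. ES levels exist for the 3 KO clones only, so the timing relative to the ES level describes A3, D5 and G6.

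As a percent of the ES mean of the clone, the X ratio was at 29.4 to 41.2% at day 2, 17.3 to 21.4% at day 3, 6.57 to 9.23% at day 5 and 5.60 to 6.94% at day 7. Tet2 was ahead of it at day 2, at 11 to 20.4%, still below it at day 3 (11 to 15.7%), and then stopped, at 13.7 to 24.8% at day 7 and 25 to 66.4% at day 15. Tet1 lagged behind the X ratio on each of these days, at 50.2 to 61.0%, 37.3 to 44.0%, 15.7 to 23.3% and 9.61 to 11.9%. Dnmt3l was at 56.1 to 118% at day 2, 21.1 to 39.8% at day 3, 9.57 to 15.3% at day 5 and 2.98 to 6.23% at day 7, so that its range lay above that of the X ratio at days 2 and 5 and overlapped it at days 3 and 7. The X ratio is a share of both alleles, so its percent of ES lies above that of Xi over Xa. The order of near values, such as those of Tet2 and Dnmt3l at day 3, depends on this scale.

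The Dnmt3b peak coincided with the steep part of silencing. At day 2, when the X ratio stood at 29.4 to 41.2% of its ES value, Dnmt3b was at 532 to 716% and Dnmt3a at 225 to 399% of theirs. At day 5, with the X ratio under 10%, Dnmt3b was at 84.9 to 137% and Dnmt3a at 101 to 155%. Later silencing in these KO clones, from 5.60 to 6.94% at day 7 to 2.78 to 3.96% at day 15, went with Dnmt3b at 59.2 to 74.0% and then 12.8 to 54.0%. Dnmt1 stayed at 89.9 to 95.3% at day 7, and Uhrf1 was at 60.1 to 82.6% at day 7. The X ratio of WT went lower. In iXist-ChrX_Dom it was 0.0164 to 0.0178 in WT against 0.0302 to 0.0335 in A3 at day 7, and 0.00462 against 0.0142 at day 15. In iXist-ChrX_Cast it was 0.0118 to 0.0243 in WT against 0.0207 to 0.0368 in KO at day 7. At day 15 these were 0.00459 against 0.0161 to 0.0164. Xist induction and differentiation began together, so a change that follows silencing and a change that follows differentiation cannot be told apart in these samples.

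**Figure D3:**
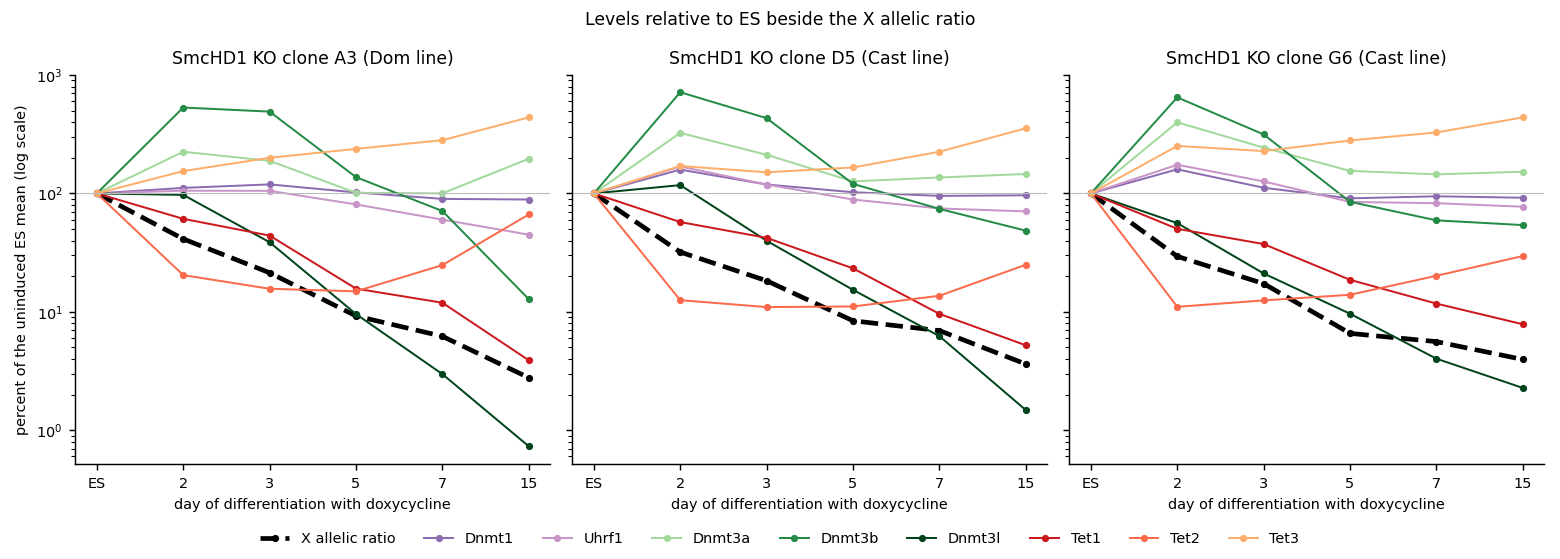
Level of each gene as a percent of the clone's ES mean (log axis) from ES to day 15 in the 3 KO clones, with the X allelic ratio as the dashed black line. Dnmt3b reaches 532 to 716% at day 2 while the X ratio is at 29.4 to 41.2%, Tet2 is under the X ratio at day 2 and Tet1 is above it through day 7.

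Between replicates of the same clone and day, deviations of a gene's level from the mean were compared with deviations of the X ratio, over 43 replicates of days 2 to 7 and with 8 relations tested by permutation within clone and day. Tet2 had a Pearson r of 0.45 (permutation p = 0.00284, adjusted p = 0.0120) and a Spearman rho of 0.52 (permutation, adjusted p = 0.0229). Dnmt3l had an r of 0.34 (permutation p = 0.00301, adjusted p = 0.0120) and a rho of 0.43 (permutation, adjusted p = 0.0288). With TMM library sizes in place of library totals r was 0.39 and 0.31 and still passed, but the adjusted p of rho was 0.0759 for both by permutation. On library totals, replicates with a less silenced Xi thus had more Tet2 and Dnmt3l RNA than the other replicates of that day. Without the 2 replicates farthest from the median X ratio deviation, r was 0.49 for Tet2 and 0.42 for Dnmt3l.

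By line the relation held in iXist-ChrX_Cast alone (27 replicates), with r of 0.68 for Tet2, 0.51 for Dnmt3l and 0.55 for Tet1 (permutation, adjusted p = 0.0212 each). In iXist-ChrX_Dom alone (16 replicates) it did not pass, with r of 0.21, 0.18 and 0.03 (permutation, adjusted p = 0.751 for Dnmt3l). The difference between lines was not tested. Same-numbered replicates of D5 and G6 deviated together on each of days 2 to 7 (correlations of their differences 0.32 to 0.70). The permutation shuffled each clone and day on its own, so p-values over iXist-ChrX_Cast and over both lines may be too small. Tet1 over both lines had an r of 0.27 (permutation, adjusted p = 0.247), and the 5 remaining genes had adjusted p of at least 0.516 by the same permutation. Replicates of a day can differ in how far they had differentiated as well as in silencing, and the part of either was not tested.

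**Figure D4:**
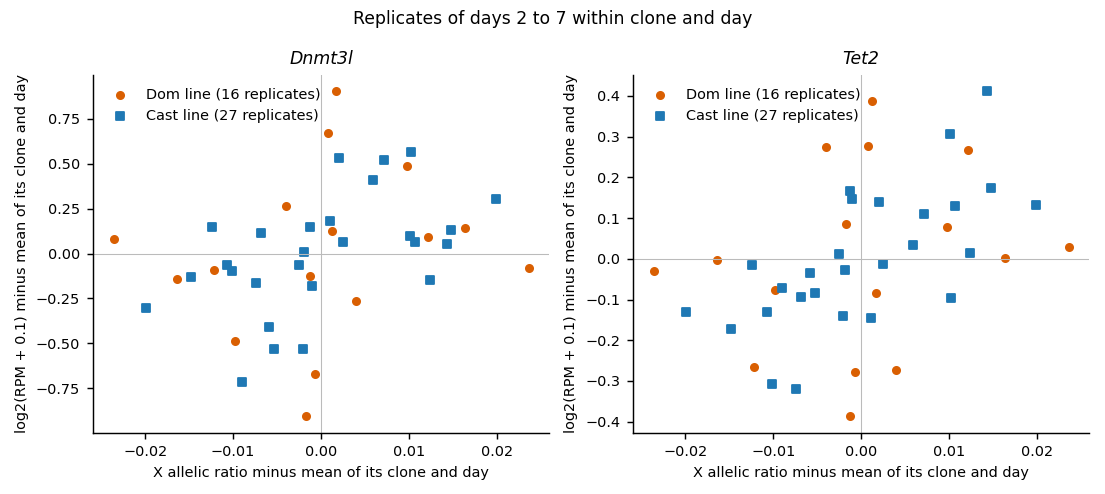
Deviation of Dnmt3l and Tet2 from the mean of their clone and day (log2 RPM) against the deviation of the X allelic ratio, for replicates of days 2 to 7 (16 of iXist-ChrX_Dom, 27 of iXist-ChrX_Cast). Over both lines r is 0.34 for Dnmt3l and 0.45 for Tet2. It is 0.51 and 0.68 in iXist-ChrX_Cast alone, and 0.18 and 0.21 in iXist-ChrX_Dom alone.

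KO and WT were compared to ask whether the enzymes themselves respond to loss of SmcHD1. In fits of day and genotype, without a term for replicate, none of the 8 genes passed the threshold at days 2 to 7 by edgeR's quasi-likelihood test. That held in iXist-ChrX_Dom (0.803% of all genes passed) and with D5 and G6 together in iXist-ChrX_Cast (0.381% passed), and DESeq2 called 1 and 0. A crossed replicate block in iXist-ChrX_Dom, described below and added after seeing the data, called Tet1 and Tet2, and 540 of 15665 genes in all. At an unadjusted p under 0.05 the edgeR fits without a block had 4 genes in iXist-ChrX_Dom (background 13.8%) and 1 in iXist-ChrX_Cast (background 9.86%). For Dnmt1, Uhrf1, Dnmt3a and Dnmt3b the unadjusted 95% intervals of the log2 fold change lay within -0.40 and 0.22 in iXist-ChrX_Dom and within -0.14 and 0.32 in iXist-ChrX_Cast. These values average over the days. For Dnmt3b in iXist-ChrX_Dom, A3 was above WT at days 2 and 3 (means of 799 against 604 and 738 against 631 RPM) and below it at days 5 and 7 (206 against 330 and 107 against 150 RPM), and the fits of days 2 and 3 alone and days 5 and 7 alone gave 0.32 and -0.52 without a call.

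The 4 genes in iXist-ChrX_Dom were Tet2, Dnmt3l, Tet1 and Tet3. Tet2 was at 103 and 103 RPM in WT against 61.6 and 36 RPM in A3 at day 2, and at 73.1 and 70.1 against 44.3 and 30.6 RPM at day 3. At day 5 it was at 45 and 65.9 against 37.5 and 33.7 RPM, and at day 7 at 51.4 and 75.5 against 55.9 and 62.8 RPM. The genotypes were apart at days 2, 3 and 5 and overlapped at day 7. Over days 2 to 7 the log2 fold change was -0.65 (95% interval -0.99 to -0.30, unadjusted p = 0.00119, adjusted p = 0.0756). DESeq2 called it, as did the edgeR fit of days 2 and 3 alone, a fit with a crossed replicate block (A3 replicate 1 with WT replicate 2, chosen after seeing the data) and the fits without day 7 replicate 1 of WT or day 7 replicate 2 of A3. Of the cell state markers, Zfp42 of the naive list (-1.05) and Pax6 of the neural precursor list (-1.15) were called lower in A3 in the same comparison, and their part in the Tet2 value was not tested.

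Dnmt3l was at 86.6 and 70.9 RPM in WT against 76.5 and 64.2 RPM in A3 at day 2, and at 17.7 and 25.6 against 9.21 and 4.64 RPM at day 5. Its log2 fold change was -0.81 (95% interval -1.37 to -0.24, adjusted p = 0.176) in iXist-ChrX_Dom and -0.41 (-0.74 to -0.09, adjusted p = 0.307) in iXist-ChrX_Cast. Against WT, G6 alone had -0.68 (SE 0.15, adjusted p = 0.0324), the only member called in a single clone (1.78% of all genes were called there). G6 was at 32.1 and 48.8 RPM against 66.7 and 54.5 RPM in WT at day 2 and at 15.9 and 14.5 against 21.3 to 25.9 RPM at day 3. The call was lost when R1 and R2 runs were taken as separate replicates and in 7 of the fits that left out a replicate. Zfp42 was called lower in G6 as well (-0.77). D5 alone had 0 of the 8 genes called by edgeR and by DESeq2, against 8.32% of all genes. Uhrf1 (0.27, unadjusted p = 0.0225 by edgeR) had an unadjusted p under 0.05, against 24.1% of all genes.

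Tet1 was at -0.49 (-0.88 to -0.11, adjusted p = 0.224) and Tet3 at 0.40 (0.14 to 0.67, adjusted p = 0.143) in iXist-ChrX_Dom. The crossed replicate block called Tet1 but not Tet3. In iXist-ChrX_Cast they were at -0.04 (-0.28 to 0.21) and 0.12 (-0.14 to 0.37), and Tet2 at -0.19 (-0.38 to 0.0007, unadjusted p = 0.0508). Each against WT, D5 and G6 went opposite ways for Tet1 and Tet3. Tet1 was at 0.21 in D5 and at -0.32 in G6 (-0.51 to -0.14, edgeR adjusted p = 0.0739). Tet3 was at -0.16 in D5 and at 0.36 in G6 (0.11 to 0.61, edgeR adjusted p = 0.137). DESeq2 called Tet1 in G6. The test of a difference in KO effect between the lines called none of the 8 genes by edgeR (0.288% of all genes were called). At an unadjusted p under 0.05 there were 2 (background 8.91%). The Tet2 effect was lower in iXist-ChrX_Dom by 0.45 (unadjusted p = 0.0158, adjusted p = 0.399) and the Tet1 effect by 0.45 (unadjusted p = 0.0414).

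At late days 0 members passed in either line by edgeR, as did 0% of all genes tested, and by DESeq2 Dnmt3b and Tet1 were called in iXist-ChrX_Dom and none in iXist-ChrX_Cast. At an unadjusted p under 0.05 there were 2 members in iXist-ChrX_Dom (background 10.7%) and 1 in iXist-ChrX_Cast (background 12.7%). In A3 Dnmt3b was at 19.2, 59.9, 74.1 and 6.70 RPM at days 15, 21, 35 and 52, against 40.4, 164, 113 and 55.1 RPM in WT, a log2 fold change of -1.39 (95% interval -2.32 to -0.45, unadjusted p = 0.0118, adjusted p = 0.462). Tet1 was at 70.5, 95.9, 98.7 and 33.9 RPM against 101, 229, 139 and 66.7 RPM (-0.68, -1.07 to -0.29, unadjusted p = 0.00573, adjusted p = 0.462). A3 was lower than WT of the same day on 4 of 4 days for Uhrf1, Dnmt3b and Tet1, where 20.3% of all genes were lower on all 4, and higher on 4 of 4 for Tet3, where 4.86% were. Without A3 day 52 the Dnmt3b value was -0.98 and the Tet1 value -0.69, and the Uhrf1 value went from -0.84 to -0.46.

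In iXist-ChrX_Cast late Tet2 was at 90.1, 103 and 169 RPM in D5 and 79.2, 172 and 237 RPM in G6 at days 15, 21 and 35, against 69.8, 76.4 and 69.3 RPM in WT. Both KO clones were higher on every day (6 of 6, where 6.34% of all genes were higher in all 6), with a log2 fold change of 0.95 (95% interval 0.17 to 1.72, unadjusted p = 0.0223, adjusted p = 0.343) and 0.79 without G6 day 35. The fibroblast sums on these days were 2933, 3970 and 16141 RPM in D5 and 1208, 7193 and 13914 RPM in G6, against 243, 2288 and 9318 RPM in WT, each KO value above WT of its day, and their part in the Tet2 difference was not tested. No member was lower than WT in all 6, as 8.59% of all genes were. Dnmt3b had a wide interval here (-1.13, -2.36 to 0.11) and was lower than WT in 4 of 6 libraries. The late intervals of Dnmt3l reached from -1.98 to 1.08 and from -1.02 to 2.49, at counts where a difference was not detectable. No member passed the test of a difference between the lines at late days (0% of genes did by edgeR, 5.65% at an unadjusted p under 0.05), with Tet1 lower by 0.65 in iXist-ChrX_Dom (unadjusted p = 0.0199).

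**Figure D5:**
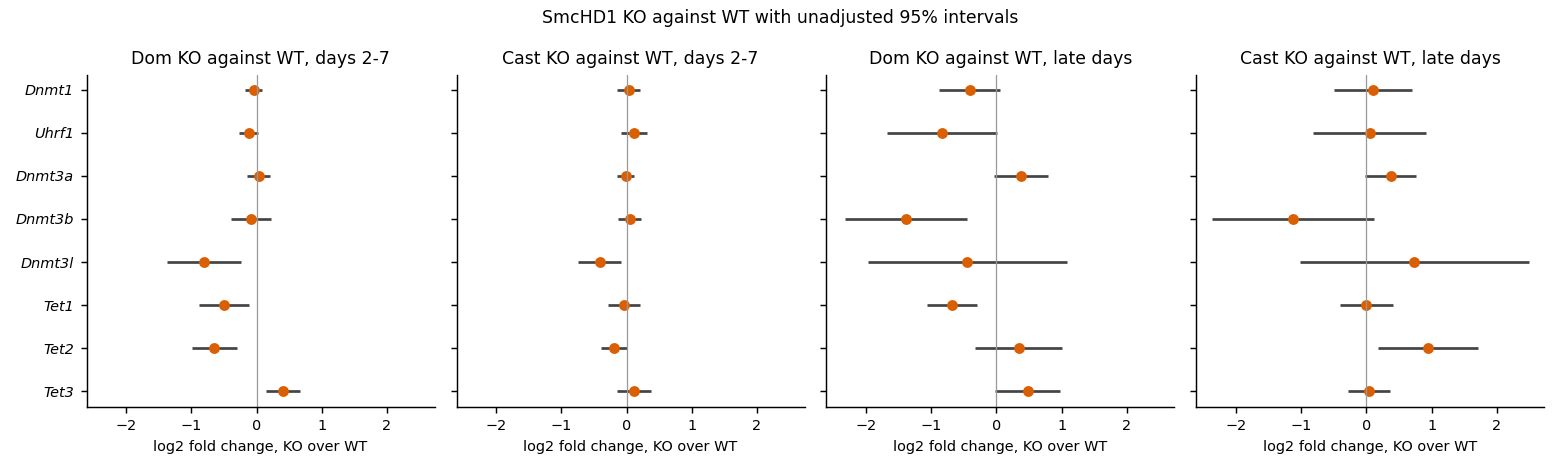
Log2 fold change of KO over WT with unadjusted 95% intervals for the 8 genes, in each line at days 2 to 7 and at late days. No value passes the adjusted threshold. The intervals at days 2 to 7 are narrow for Dnmt1, Uhrf1, Dnmt3a and Dnmt3b, and the late intervals are wider.

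Other genes of the pathway were read from lists. From early to mid 7.26% of all genes rose and 4.34% fell in iXist-ChrX_Dom WT, and 17.1% rose and 17.2% fell in iXist-ChrX_Cast WT, the background for the counts that follow. Of 8 maintenance cofactors (Usp7, the deubiquitinase that binds DNMT1 and UHRF1, among them), 1 rose and 5 fell from early to mid in iXist-ChrX_Cast WT, and 1 rose and 1 fell in iXist-ChrX_Dom WT (median log2 fold change -0.59 and -0.34, where that of all genes was -0.0041 and -0.011). Uhrf2, the paralogue of Uhrf1, rose in both (0.81 in iXist-ChrX_Dom and 0.71 in iXist-ChrX_Cast), and Usp7 fell in both (-0.50 and -0.45). From mid to late 1 of 8 fell in iXist-ChrX_Dom WT and 3 of 8 in iXist-ChrX_Cast WT, where 7.36% and 12.5% of all genes fell.

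Of 18 TET partners and base excision repair genes, 3 rose and 1 fell from early to mid in iXist-ChrX_Dom WT, and 4 rose and 4 fell in iXist-ChrX_Cast WT (medians -0.07 and -0.05). Gadd45b, a stress-induced adaptor linked to demethylation, rose by 2.39 and 2.09, and Cxxc4, a CXXC protein that binds TET2, by 2.22 and 1.58. Parp1, which acts in base excision repair, fell by 0.58 and 0.66. Of 10 readers of methylated DNA, 2 rose and 1 fell in iXist-ChrX_Dom WT and 3 rose and 2 fell in iXist-ChrX_Cast WT (medians 0.07 and 0.08). Zbtb4 (1.08 and 1.14) and Mbd2 (0.68 and 0.95) rose in both. Of 12 regulators of de novo methylation 0 rose and 2 fell in iXist-ChrX_Dom WT and 1 rose and 4 fell in iXist-ChrX_Cast WT (medians -0.26 and -0.25), and Mat2a, which makes the methyl donor, fell in both (-0.62 and -0.89).

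Germline genes known as targets of promoter methylation fell in both lines. Of 14 listed 13 were tested, and 7 fell from early to mid in iXist-ChrX_Dom WT and 11 in iXist-ChrX_Cast WT, with 0 rising, where 4.34% and 17.2% of all genes fell. Their median log2 fold change was -1.79 and -1.77, where the median of all genes was -0.011 and -0.0041. The genes that fell in both lines include Mael (-2.52 and -2.86), Hormad1 (-2.33 and -2.03) and Dazl (-2.03 and -2.08), which act in transposon control, meiosis and germ cell development. From mid to late 4 fell and 1 rose in iXist-ChrX_Dom WT and 11 fell in iXist-ChrX_Cast WT, where 7.36% and 12.5% of all genes fell. Their summed level was 155 to 244 RPM in ES cells, 89.1 to 257 RPM early, 20.7 to 71.3 RPM mid and 7.06 to 84.4 RPM late, so that its larger fall came after the Dnmt3b peak of days 2 and 3. Whether methylation took part in this was not tested.

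The X-linked MAPK inhibitors Dusp9 and Klhl13, known to lower DNMT3 levels in XX ES cells, summed to 863 to 1802 RPM in ES cells and 115 to 726 RPM early. From ES to early 1 of the 2 fell in A3 and 1 in D5 and G6. In KO against WT of either line no gene of these pathway lists was called by edgeR at days 2 to 7 or late. In D5 alone Cdca7 (0.35), Dppa3 (0.91), Lig3 (0.34) and Dazl (0.64) were higher and Mbd2 (-0.32) and Kdm2b (-0.30) lower, and in G6 alone Hormad1 was lower (-1.31). Of all genes, 8.32% were called in D5 and 1.78% in G6. Among marker genes, Nanog (0.62), Zic2 (0.46) and the cell cycle genes Top2a, Mcm3, Ccnb1 and Cdk1 were called higher in D5. The endoderm genes Gata4 (-1.96), Gata6 (-1.95) and Sox7 (-1.57) were called lower there. The part of cell state in the D5 values was not tested. The KO effect on Dppa3, which keeps UHRF1 from chromatin in germ cells and ES cells, differed between the lines by -1.65 (iXist-ChrX_Dom minus iXist-ChrX_Cast).

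The genes with the most similar course were sought among 16981 genes tested in both lines, by Pearson r of log2(RPM + 0.1) over the 40 means of a clone and day. Nearest to Dnmt1 were Uhrf1 (0.96), Fen1 (0.95) and Traip (0.95), and nearest to Uhrf1 were Traip, Incenp and Mcm2 (0.98 each). Tet1 was nearest to Txlng, Usp7 and A830080D01Rik (0.99 each), Dnmt3b to Mettl13, Ppp1r8 and Rpf2 (0.97 each), and Tet3 to Clip2, Bin1 and Oaz2 (0.96 each). Dnmt3l was nearest to Zfp600, 2610305D13Rik and Rex2 (0.99 each), zinc finger genes with near-identical copies whose counts are uncertain. Tet2 and Dnmt3a had no partner as close: Mras (0.90), Tbc1d8b (0.89) and B3galnt1 (0.83) for Tet2, and Usf1 (0.81), Sh3glb2 (0.81) and D930015E06Rik (0.80) for Dnmt3a. These points share libraries, days and depth.

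The cross of strains also gave the share of each gene's allelic fragments that came from the Cast allele, where the library-wide share was 48.1 to 51.2%. Tet2 went from an early median of 54.1% in iXist-ChrX_Dom and 52.3% in iXist-ChrX_Cast to a late median of 43.4% (range 41.4 to 51.4%) and 41.8% (40.7 to 47.4%), so that the late rise was larger on the Dom allele in both lines. Dnmt3a was at 54.3 and 61.3% in ES cells and went from 57.8 and 57.1% early to 53.8 and 50.1% in the mid period and 49.1 and 49.6% late. In both lines the median Cast share of Dnmt3a was thus above the library-wide range early and within it late. In ES cells all iXist-ChrX_Cast replicates were above that range (55.5 to 64.3%), whereas the 2 of iXist-ChrX_Dom had 48.0 and 60.6%. These shares are given without a test, and a mapping preference for an allele within a gene was not tested.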

How the data were processed

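ChrRNA-seq libraries were grouped by line, clone and day from the labels. The authors removed ribosomal reads with Bowtie2 2.3.2, used STAR 2.4.2a to map the rest to mm10 with strain SNPs masked, split reads by allele with SNPsplit and deposited whole-number counts of fragments per gene (featureCounts, strand-specific, over whole gene bodies). They also deposited allelic ratios of X-linked genes as a fraction. In the ratio table of iXist-ChrX_Dom, 26 value columns were named after libraries of the other line. They were left out, and ratios over its 246 listed genes were computed from the allelic counts. No library pair held identical counts. The 7 pairs of R1 and R2 runs were joined (counts summed), leaving 65 replicates. Whether replicates came from separate cultures is not given for each, and p-values measure the spread between these samples.

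Counts were tested with edgeR 4.0.16 (TMM, filterByExpr, glmQLFit, glmQLFTest, R 4.3.3) and adjusted by Benjamini-Hochberg over all genes tested, with a threshold of 0.05. Changes over time used a coefficient per clone and period within each line, and KO against WT used day plus genotype. Levels are RPM of library totals, so their ratios can differ from the TMM-scaled fold changes. The within-day relation used 100000 resamples (scipy 1.17.1). Alternatives were DESeq2 1.42.0, other scaling and filters, a replicate block and left-out replicates. On simulated counts the fits recovered 82% of changes with a log2 fold change of 1 in iXist-ChrX_Dom KO against WT at days 2 to 7 and 95% in iXist-ChrX_Cast, but 6% and 14% at late days (15270, 15290, 15025 and 14678 genes). The 8 genes, the pathway lists and the marker lists were chosen with earlier results of these data known. Named list genes were those called in the same direction in WT of both lines, up to 6 a list by the larger adjusted p, and in KO against WT every called pathway gene. Counts carry counting error at the depths given, and the counts of Dnmt3l at late days were the lowest.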

Additional observations from a re-analysis of the deposited data

How the results depend on the processing

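No change of setting reversed the direction of a called result. Over time, 21 calls of the 8 genes were made in iXist-ChrX_Dom and 29 in iXist-ChrX_Cast, and with a coefficient for each clone and day there were 33 in iXist-ChrX_Dom. For days 5 and 7 against days 2 and 3 there were 7 calls in iXist-ChrX_Dom and 12 with a replicate block. Same-numbered replicates of A3 and WT deviated in opposite directions (correlations -0.33 to -0.67), so equal numbers did not pair the samples. Replicate 1 of either deviated with replicate 2 of the other. The name forms of their deposited libraries at days 2, 3, 5 and 7 cross in the same way. In iXist-ChrX_Cast same-numbered D5 and G6 replicates deviated together (0.32 to 0.70), but those of either clone and WT changed sign between days. There the name form that WT replicate 2 shares with D5 replicate 2 at day 2 is carried by WT replicate 3 at days 3, 5 and 7. The replicate block of KO against WT joined equal numbers, so it could join unmatched samples. Which replicates were run together is not given. For KO against WT in iXist-ChrX_Dom at days 2 to 7 the 0 calls became 1 with DESeq2, 1 with days 2 and 3 alone, 2 with a crossed replicate block, added after seeing the data, and 0 to 1 on leaving out single replicates. At late days the 0 calls became 2 with DESeq2 and 4 with a fit over all periods of iXist-ChrX_Dom, and 2 with such a fit in iXist-ChrX_Cast. In iXist-ChrX_Cast at days 2 to 7, G6 alone gave 1, and D5 alone went from 0 to 2 with the replicate block. G6 alone went from 1 to 2 with DESeq2, 0 with R1 and R2 apart, 0 with days 2 and 3 alone, 0 with days 5 and 7 alone and 0 to 2 on leaving out replicates. The 2 within-day relations became 0 in iXist-ChrX_Dom alone. The cause of these changes was not tested.

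Single libraries moved several calls. Without iXist-ChrX_Dom WT day 21, Dnmt3a, Dnmt3b and Dnmt3l were called from mid to late in that group. Without A3 day 52, Uhrf1, Dnmt3b and Dnmt3l were called there, through the shared spread. Over all genes, early to mid calls in iXist-ChrX_Dom WT went from 1986 to 4285 with a coefficient for each clone and day and 4191 with a replicate block, and mid to late calls from 3422 to 6183 with the former. Those of A3 went from 3937 to 6175 and 6190 (early to mid), and from 3455 to 6204 and, fitted alone, 2173 (ES to early). Calls of KO against WT went from 124 to 559 with DESeq2, 540 with the crossed block and 0 with days 5 and 7 alone in iXist-ChrX_Dom at days 2 to 7, and from 59 to 241, 249 with the block and 0 with days 2 and 3 or days 5 and 7 alone in iXist-ChrX_Cast. The late 0 became 184 and 435 with DESeq2 and 1379 and 1870 with the fit over all periods. At days 2 to 7 D5 went from 1285 to 2237 with the block, 26 with days 2 and 3 and 139 with days 5 and 7, and G6 from 273 to 1079, 0 and 56, 647 with DESeq2 and 153 with R1 and R2 apart. Scaling by library totals moved the median of all genes by -0.23 and -0.19 from mid to late in the WT groups. Higher calls went from 2162 of 3422 to 1434 of 4397 in iXist-ChrX_Dom WT and from 3114 of 5353 to 2176 of 5578 in iXist-ChrX_Cast WT, and no called member changed direction. The total over time without the only G6 ES replicate was not run, since its contrast with ES loses that clone. Late days have 1 library per clone and day, which limits what late KO effects can be detected.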
